A study of Homo sapiens with 4 samples.

Results

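The genes of the mitochondrial ribosome were examined in MV4-11, an established line of human acute myeloid leukaemia with a KMT2A-AFF1 fusion, after delivery of hairpin RNAs against the transcription factor RUNX1. Members were the probe sets whose only platform gene symbol began with MRPL or MRPS and a digit, with pseudogenes and 3 noncoding neighbour transcripts left out and the probe set of highest mean kept per gene. This gave 71 of 12516 tested protein-coding genes, 46 named for the large subunit (MRPL) and 25 for the small one (MRPS), read by 78 probe sets. All 71 passed the filter on dim probe sets, and each read above the median of all probe sets (3.08 log2 units) in all 4 arrays. A further 6 genes named MRPL or MRPS, among them MRPL12 of the ribosomal stalk, share every probe set with another gene and are not members.

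Each of 4 samples received 1 hairpin and 3 µM doxycycline for 24 h, and its RNA was read on 1 whole-transcript array. The hairpins are called moderate, profound 1 and profound 2 after the depth of RUNX1 knockdown in their labels, and the control hairpin targets luciferase. By the labels, line, drug and time are the same in all 4 samples. No sample was without doxycycline, so the drug's own part in the levels of these genes was not tested. The values are log2 signals that the authors normalised by RMA. With 1 array per hairpin there is no replicate error and no test, and genes are called by size, at 1.5-fold (0.58 log2 units). Precision is limited by this number of arrays.

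Array medians lay between 3.07 and 3.09. The probe set of RUNX1, which it shares with LOC100506403, read 4.33 in the moderate array, 4.07 in profound 1, 4.04 in profound 2 and 4.27 in the control array. The moderate array was thus not below control in RUNX1 signal, and directions below are between arrays named by their labels. The description fields of the profound 1 and profound 2 arrays name RUNX2 and RUNX3 as targets, and their titles and genotype labels name RUNX1. Of the 6 measured myeloid markers, 5 read above the table median in all arrays (LYZ, SPI1, PTPRC, MPO and ITGAM), and CD14 read below it in all. HBB, CD3E, CD3D, MS4A1, COL1A2, PDGFRB and EPCAM, which mark red cells, T cells, B cells, fibroblasts and epithelium, read below it in all 4 arrays. The other 6 markers of such cells on the list (KLF1, NKG7, CD79A, COL1A1, KRT8 and KRT18) read above it in all 4, and their part in the results was not tested.

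The mitochondrial ribosome translates the few proteins encoded by mitochondrial DNA, all of them subunits of the respiratory chain and ATP synthase. Its proteins are encoded in the nucleus, made in the cytosol and imported, while its RNAs are made in the organelle. It descends from a bacterial ribosome, has exchanged much RNA for protein, and carries many proteins with no bacterial counterpart. Nuclear genes for mitochondrial proteins are commonly controlled by NRF1, by the ETS factor GABP and by YY1, and acute myeloid leukaemia cells are known to rely on mitochondrial translation.

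The sequence just upstream is shown for some of the genes with the lowest and highest values below, and for the steadiest. Promoters are given as the 250 bases before the most upstream RefSeq start of each gene (GRCh38.p14). MRPL18 and MRPL57 were among the lowest in profound 1, MRPL45 was among the highest there, MRPL36 was the highest in profound 2, and MRPS22 varied least. Their positions are chr6:159789562-159789811 (plus strand) for MRPL18, chr13:21176408-21176657 (plus) for MRPL57, chr17:38296918-38297167 (plus) for MRPL45, chr5:1799838-1800087 (minus) for MRPL36 and chr3:139343744-139343993 (plus) for MRPS22. Capitals mark matches, on either strand, to an NRF1-type core (the NRF1 palindrome with 1 middle base free), CCGGAAGT (ETS), AAGATGGCG (YY1), CACGTG (E-box, the class bound by MYC) or TGTGGT (RUNX).
MRPL18: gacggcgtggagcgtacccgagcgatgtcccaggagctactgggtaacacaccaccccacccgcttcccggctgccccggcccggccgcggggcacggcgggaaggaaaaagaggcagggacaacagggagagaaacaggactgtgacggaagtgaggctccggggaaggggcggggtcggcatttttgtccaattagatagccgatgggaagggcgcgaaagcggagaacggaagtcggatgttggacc
MRPL57: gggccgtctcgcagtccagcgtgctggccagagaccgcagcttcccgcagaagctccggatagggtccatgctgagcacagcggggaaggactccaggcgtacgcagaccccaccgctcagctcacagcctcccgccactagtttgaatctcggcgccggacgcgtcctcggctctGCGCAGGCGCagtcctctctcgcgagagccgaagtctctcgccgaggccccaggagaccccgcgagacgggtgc
MRPL45: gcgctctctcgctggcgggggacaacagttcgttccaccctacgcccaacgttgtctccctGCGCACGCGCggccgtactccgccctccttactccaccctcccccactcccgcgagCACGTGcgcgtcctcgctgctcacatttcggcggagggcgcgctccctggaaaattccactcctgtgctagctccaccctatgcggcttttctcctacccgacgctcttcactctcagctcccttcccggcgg
MRPL36: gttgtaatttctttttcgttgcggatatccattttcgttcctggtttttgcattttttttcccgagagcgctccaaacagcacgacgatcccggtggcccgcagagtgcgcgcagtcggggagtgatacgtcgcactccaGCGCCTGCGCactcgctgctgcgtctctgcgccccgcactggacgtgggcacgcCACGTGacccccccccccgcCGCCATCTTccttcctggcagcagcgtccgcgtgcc
MRPS22: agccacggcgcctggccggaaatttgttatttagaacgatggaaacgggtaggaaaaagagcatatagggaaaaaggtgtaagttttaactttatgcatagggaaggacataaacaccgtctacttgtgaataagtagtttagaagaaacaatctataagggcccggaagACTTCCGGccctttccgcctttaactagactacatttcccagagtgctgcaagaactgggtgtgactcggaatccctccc

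MRPL18 has none of these letters in that window, MRPL57 has 1 NRF1-type core, MRPL45 has an NRF1-type core and an E-box, MRPL36 has both of these and a YY1 match, and MRPS22 has an ETS match. Windows of 300 bases (250 before and 50 after each start) were found for 64 of the 71 members and for 10254 tested genes. At least 1 window held the YY1 letters in 18.8% of members and 4.44% of tested genes, and the ETS letters in 17.2% and 9.18%. MRPL18 is among the members with the ETS letters, in a window of another start than the one printed. MRPL58 and MRPS26, also among the lowest in profound 1, and MRPL55, the highest there, are not printed. No window of these genes held any of the letters marked by capitals. The relaxed NRF1 core was in 12.5% of members and 12.2% of tested genes, the strict NRF1 palindrome in 1.56% and 2.59%, and the E-box in 14.1% and 12.2%. The RUNX letters TGTGGT were in 9.38% of members and 13.4% of tested genes, and with the third base free (TGNGGT) in 43.8% and 48.2%. Over all 35116 windows the shares were 1.75% for YY1, 4.14% for ETS, 5.78% for the relaxed and 1.24% for the strict NRF1 letters, 7.26% for the E-box, 13.1% for TGTGGT and 43.2% for TGNGGT. The strict NRF1 letters are contained in the relaxed ones, as TGTGGT is in TGNGGT, and a match describes letters only.

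Across the 4 arrays the family was nearly flat. The range of a member over the arrays had a median of 0.21 log2 units, against 0.29 in the 8878 tested genes whose mean level lay within that of the members (4.19 to 9.99). A range of 1.5-fold or more was seen in 4 members (5.63%), MRPL18, MRPL58, MRPL43 and MRPS26, and in 11.7% of the genes of that level range. The steadiest was MRPS22, a small subunit protein without bacterial counterpart, at 6.79 in the moderate array, 6.80 in profound 1, 6.79 in profound 2 and 6.81 in the control array. MRPS30, MRPL2 and MRPL24 followed, with ranges of 0.032, 0.066 and 0.068. MRPL2 encodes a core protein of the large subunit next to the peptidyl transferase centre, and MRPL24 one near the exit tunnel.

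**Figure D1:**
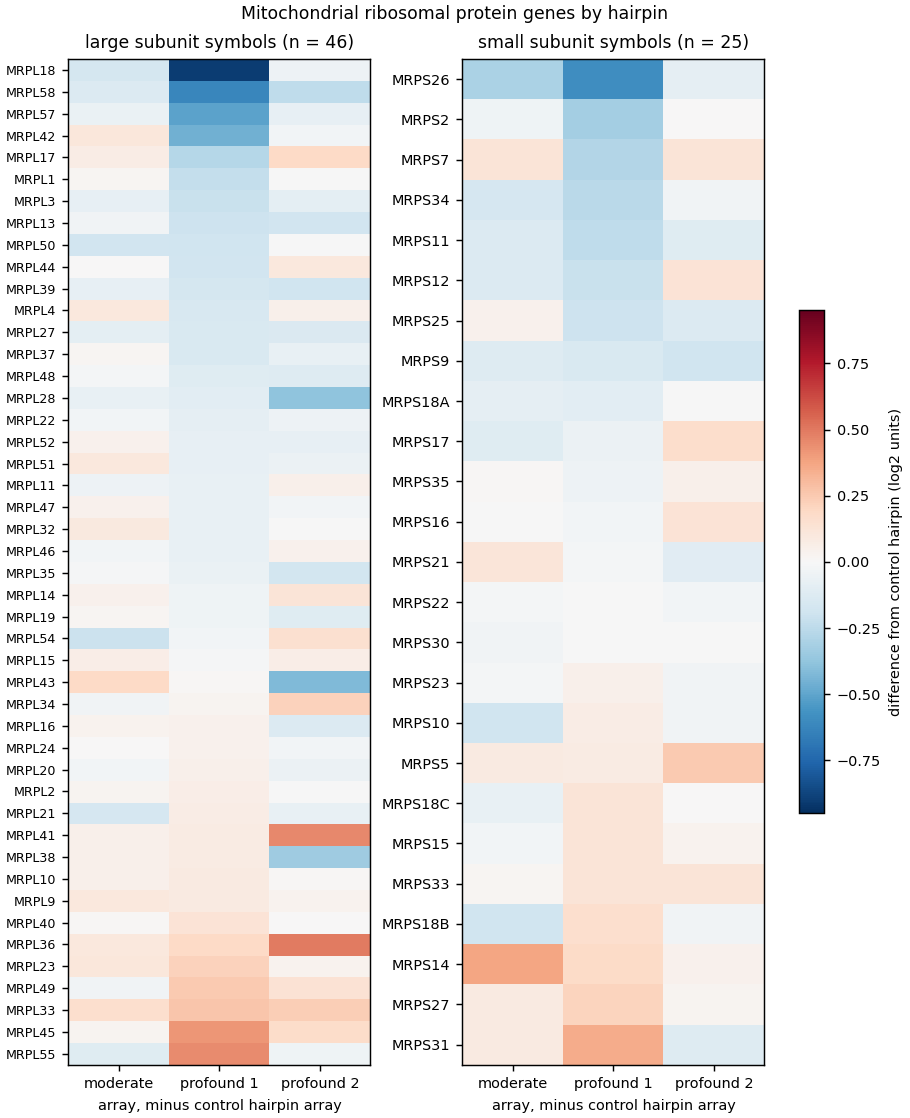
Difference of each of the 71 members from the control hairpin array (colour, log2 units), by hairpin array, with large subunit symbols at left and small subunit symbols at right, each ordered by profound 1. MRPL18 in profound 1 (-0.90) is the darkest cell, and most others are pale.

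The profound 1 array held the members that differed most. Against the control array, 3 of 71 were at least 1.5-fold lower and 0 were higher, where 6.72% of all tested genes differed by that size, 4.03% being lower and 2.68% higher. Among genes of the members' level range, 4.85% were lower by that size. The share of members is thus near the background.

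MRPL18 encodes the counterpart of bacterial protein L18, which lies in the central protuberance of the large subunit. It read 6.79 in the moderate array, 6.05 in profound 1, 6.90 in profound 2 and 6.95 in the control array, so that profound 1 alone was low. Its difference in profound 1 was -0.90 log2 units (1.87-fold lower), and 1.01% of the genes of the level range were lower by as much. Against the moderate array it was -0.74 and against profound 2 -0.85, so that the low value does not rest on the control array.

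MRPL58 (also known as ICT1) encodes a peptidyl-tRNA hydrolase that became part of the large subunit and frees stalled ribosomes. It read 8.89 in the moderate array, 8.40 in profound 1, 8.78 in profound 2 and 9.02 in the control array. All 3 arrays of RUNX1 hairpins were below control, and profound 1 was lowest, by -0.62 log2 units (1.54-fold lower). The 3 differences share the control array. The difference from the moderate array was -0.49, short of 1.5-fold.

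MRPS26, a small subunit protein specific to mitochondria, read 5.99 in the moderate array, 5.70 in profound 1, 6.20 in profound 2 and 6.29 in the control array. The difference in profound 1 was -0.59 (1.51-fold lower), only just past the size rule, and the moderate array was also low, by -0.30. As many as 4.72% of the genes of the level range were lower by as much in profound 1.

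Just short of 1.5-fold lay MRPL57, a small large subunit protein specific to mitochondria. It read 7.64 in the moderate array, 7.20 in profound 1, 7.62 in profound 2 and 7.70 in the control array, again low in profound 1 alone (-0.51, 1.42-fold lower). MRPL42 read 7.46 in the moderate array, 6.90 in profound 1, 7.33 in profound 2 and 7.36 in the control array. It thus stood low in profound 1 too, at 1.37-fold below control.

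On the higher side in profound 1, MRPL55 came first; its protein fills the place of bacterial L31. It read 5.40 in the moderate array, 5.97 in profound 1, 5.48 in profound 2 and 5.52 in the control array, a difference of 0.45 log2 units in profound 1 (1.37-fold higher). Profound 1 alone was high, also against the moderate array (0.57). MRPL45, a protein of the exit tunnel that helps to hold the ribosome at the inner membrane, read 8.47 in the moderate array, 8.86 in profound 1, 8.62 in profound 2 and 8.44 in the control array (0.42 in profound 1). A pseudogene probe set, MRPL45P2, lay 0.20 above control in the same array, and signal passing between such near copies was not tested. MRPS31, a small subunit protein specific to mitochondria, was 0.35 above control in profound 1, with readings of 6.24 in the moderate array, 6.50 in profound 1, 6.03 in profound 2 and 6.15 in the control array.

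**Figure D2:**
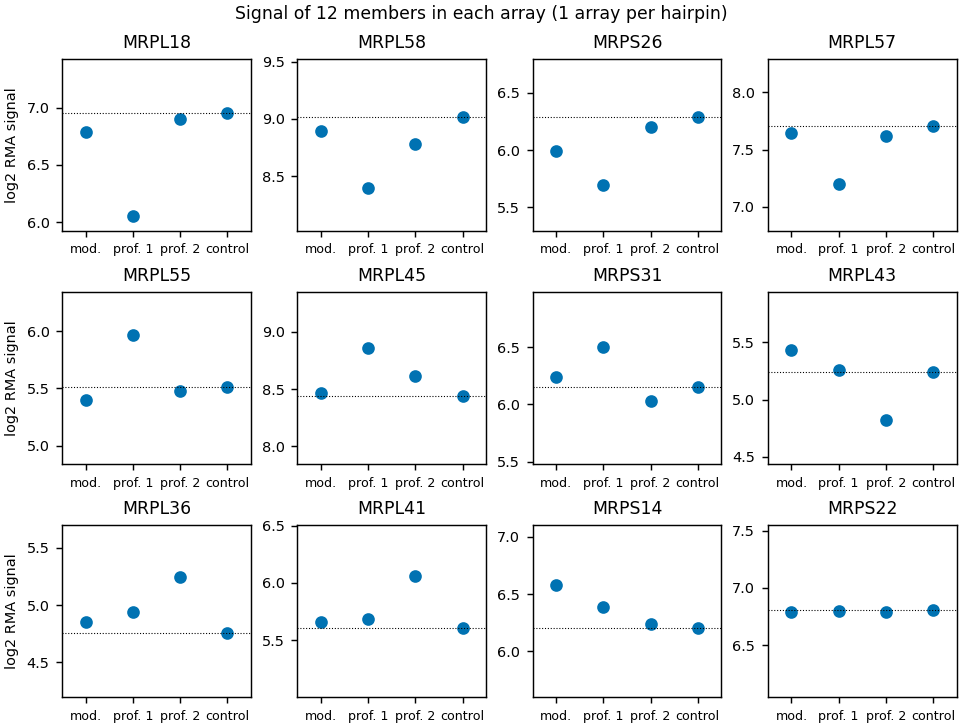
Log2 RMA signal of 12 members in the moderate, profound 1, profound 2 and control arrays, with a dotted line at the control value and the same span on every axis. MRPL18, MRPL58, MRPS26 and MRPL57 are lowest in profound 1, whereas MRPL43 is lowest in profound 2 and MRPS22 is level.

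The family as a whole leaned slightly downward in profound 1. The median of the 71 differences was -0.04 log2 units, against -0.003 for all tested genes, and 60.6% lay below control, against 51.7% of genes of the level range. Profound 1 was the lowest of the 4 arrays for 32 members (45.1%), against 34.9% of genes of that range, and the highest for 20 (28.2%), against 31.3%. At a smaller size rule of 0.32 log2 units, 8 members differed, 3 higher and 5 lower, where 24.8% of all tested genes did, 11.6% being higher and 13.2% lower. No direction of the family is called from a shift of this size.

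In profound 2, 0 of 71 members differed from control at 1.5-fold, where 2.21% of all tested genes did, 1.2% being higher and 1.01% lower. The median difference was -0.007, and at 0.32 log2 units 2 members were higher and 3 lower, where 13.5% of tested genes differed, 7.09% being higher and 6.42% lower. MRPL36, the counterpart of the very small bacterial protein L36, was highest, at 4.85 in the moderate array, 4.94 in profound 1, 5.24 in profound 2 and 4.75 in the control array (0.49 above control). All 3 arrays of RUNX1 hairpins were above control, which the 3 differences share, and profound 2 stood furthest. MRPL41 read 5.66 in the moderate array, 5.69 in profound 1, 6.06 in profound 2 and 5.61 in the control array, a difference of 0.45 in profound 2. Both belong to the large subunit. In the moderate and profound 1 arrays MRPL36 differed from control by 0.10 and 0.19, and MRPL41 by 0.05 and 0.08. MRPS5, the counterpart of a bacterial protein near the mRNA entry site, followed in profound 2, at 0.25.

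The lowest members in profound 2 were MRPL43, MRPL28 and MRPL38, all of the large subunit. MRPL43 read 5.43 in the moderate array, 5.26 in profound 1, 4.82 in profound 2 and 5.24 in the control array, a difference of -0.42 in profound 2. MRPL28, the counterpart of bacterial L28, had a difference of -0.38, and MRPL38, a protein of the central protuberance, had a difference of -0.34. In profound 1 the differences of these 3 were 0.01, -0.10 and 0.08, and in the moderate array they were 0.19, -0.07 and 0.05, so that MRPL43 was above control in moderate and below it in profound 2. MRPL58 was the fourth lowest in profound 2, at -0.24, and MRPL33, the counterpart of bacterial L33, was among the 4 highest in each of the 3 arrays of RUNX1 hairpins (0.16, 0.26 and 0.24 in moderate, profound 1 and profound 2). These 3 differences share the control array, where MRPL33 read 6.33. A dimmer probe set of MRPL33, which read 3.26 in control, differed by 0.20, 0.0085 and 0.55 in the same order. A brighter one, shared with BABAM2, read 6.82 in control and differed by 0.095, 0.43 and 0.15.

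In the moderate array, 0 of 71 members differed from control at 1.5-fold, where 1.31% of all tested genes did, 0.863% being higher and 0.447% lower. The median difference was -0.0015. MRPS14, the counterpart of a bacterial protein at the decoding end of the small subunit, was the 1 member past 0.32 log2 units in either direction, where 10.5% of tested genes were, 5.99% being higher and 4.46% lower. It read 6.58 in the moderate array, 6.39 in profound 1, 6.24 in profound 2 and 6.20 in the control array, highest in the moderate array (0.37). The next were MRPL43 (0.19), MRPL33 (0.16) and MRPS7 (0.12). The lowest were MRPS26 (-0.30), MRPL54 (-0.20), MRPS18B (-0.19) and MRPS10 (-0.19), with MRPL54 belonging to the stalk region that binds translation factors.

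The arrays of RUNX1 hairpins were also set against each other, without the control. Against the moderate array, profound 1 had 1 member at least 1.5-fold lower (MRPL18) and 0 higher, where 5.13% of tested genes differed, 3.48% being lower and 1.65% higher. Profound 2 had 1 lower, MRPL43 (-0.61), and 0 higher, where 2.64% of tested genes differed, 1.6% being lower and 1.04% higher. MRPL43 was at -0.57 after cyclic loess, which ends that call. Profound 1 against profound 2 had 1 lower, MRPL18 again, and 0 higher, where 5% of tested genes differed, 2.94% being lower and 2.06% higher. At 0.32 log2 units, 9 members differed between profound 1 and moderate, 6 between profound 2 and moderate and 14 between profound 1 and profound 2, where 21.5%, 15.5% and 23.3% of tested genes did. Between profound 1 and profound 2, MRPS26 (-0.51), MRPL17 (-0.46) and MRPL42 (-0.43) were the next lowest in profound 1, and MRPL55 (0.49), MRPS31 (0.47), MRPL43 (0.43) and MRPL38 (0.41) the highest. MRPL18, MRPL17 and MRPL42 belong to the large subunit and MRPS26 to the small one.

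The gap between the subunits had no one direction across the hairpins. In the moderate array the large subunit genes had a median difference from control of 0.01 log2 units and the small subunit genes one of -0.03, a gap of 0.04. In profound 1 the medians were -0.07 and -0.02 (gap -0.04), and in profound 2 they were -0.025 and -0.0011 (gap -0.024). Below control lay 43.5% of large and 64% of small subunit genes in the moderate array, 60.9% and 60% in profound 1, and 60.9% and 52% in profound 2. The largest gap of all 6 comparisons was -0.075, for profound 2 against moderate, where 65.2% of large and 32% of small subunit genes were lower in profound 2. With 1 array per hairpin, none of these gaps could be tested. The spread of single members (a median absolute deviation scaled to an SD) was 0.10 in the moderate array, 0.18 in profound 1 and 0.11 in profound 2.

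**Figure D3:**
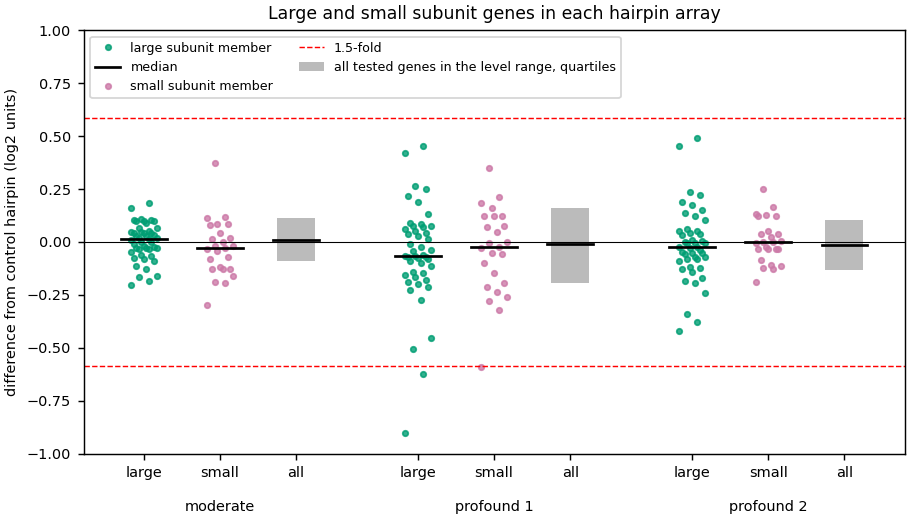
Difference from the control hairpin array (log2 units) of each large and small subunit member, with medians as black lines, beside the quartile range of the 8878 tested genes in the same level range. Members crowd around 0 in every array, and only MRPL18, MRPL58 and MRPS26 in profound 1 pass the dashed 1.5-fold line.

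Symbols do not always name the right subunit. MRPS30 and MRPS18A are built into the large subunit of the human mitoribosome despite their names, and with both moved, the gaps were 0.03 in the moderate array, -0.04 in profound 1 and -0.017 in profound 2. MRPS18A is one of a set of 3 genes related to bacterial S18, of which MRPS18B and MRPS18C stay in the small subunit. Only MRPS18C takes the place of S18 itself, so MRPS18A and MRPS18B are counted as specific to mitochondria in the classes that follow. MRPS18A read 8.18 in the moderate array, 8.16 in profound 1, 8.26 in profound 2 and 8.26 in the control array. MRPS18B read 8.14 in the moderate array, 8.49 in profound 1, 8.30 in profound 2 and 8.33 in the control array, lowest in moderate and highest in profound 1. MRPS18C read 5.18 in the moderate array, 5.37 in profound 1, 5.25 in profound 2 and 5.25 in the control array. The 3 paralogues therefore all stayed within 0.32 log2 units of control. The 7 probe sets of MRPS18B hold 1 and the same set of values.

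The 41 members with a bacterial counterpart were compared with the 30 specific to mitochondria. In profound 1 the group with a counterpart had 1 member lower at 1.5-fold (MRPL18) and the specific group 2 (MRPL58 and MRPS26), where 4.03% of all tested genes and 4.85% of genes of the level range were lower, so that counts this small set neither class apart. The medians differed by 0.007 in the moderate array, 0.020 in profound 1 and 0.026 in profound 2.

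By place in the large subunit, the measured stalk proteins MRPL10, MRPL11 and MRPL54 lay close to control, with MRPL54 in the moderate array (-0.20) furthest off. Of the 8 measured proteins around the exit tunnel, MRPL45 was highest in profound 1 (0.42) and MRPL17 lowest (-0.27), with a median of -0.08. Of the 8 listed for the central protuberance, MRPL18 was lowest in profound 1 (-0.90) and MRPL40 highest (0.13), with a median of -0.07. The difference of MRPL18 was thus not shared by the others listed at that site. MRPL58 (-0.62 in profound 1) and MRPL55 (0.45) were given no site, and the list of a site may lack proteins that lie there. Neighbours in the particle were therefore not compared as a whole.

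Some of these genes start close to another gene on the opposite strand. Of the 64 members with a promoter window, 28 had a RefSeq start on the opposite strand within 1000 bases, and in 18 such pairs both genes were tested. In profound 1 both genes were below control in 8 pairs, both above in 3 and on opposite sides in 7. The 18 include pairs whose starts overlap and are not head to head: MRPL34 with ABHD8 and MRPL9 with OAZ3, both above, and MRPS34 with EME2, both below. MRPL57 starts 106 bases from SKA3, which encodes a protein of the outer kinetochore, and SKA3 was the 1 partner at least 1.5-fold lower (-0.80, beside -0.51 for MRPL57). The partners of MRPL27 and MRPL51, the DNA repair gene EME1 (-0.31) and the condensin gene NCAPD2 (-0.35), were below control as well, but MRPL27 (-0.15) and MRPL51 (-0.08) less so. Other low partners stood opposite members above control: PTCD2 (-0.41) beside MRPS27 (0.21), and the DNA repair gene HELQ (-0.26) beside MRPS18C (0.12). MRPL46 and MRPS11, 1 gene of each subunit, start 320 bases apart and differed by -0.07 and -0.24. ZNF189, opposite MRPL50, was 0.73 above control while MRPL50 was at -0.19. MRPL18 starts 210 bases from TCP1, a chaperonin subunit gene whose probe set is shared with SNORA29 and differed by -0.10 in profound 1.

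**Figure D4:**
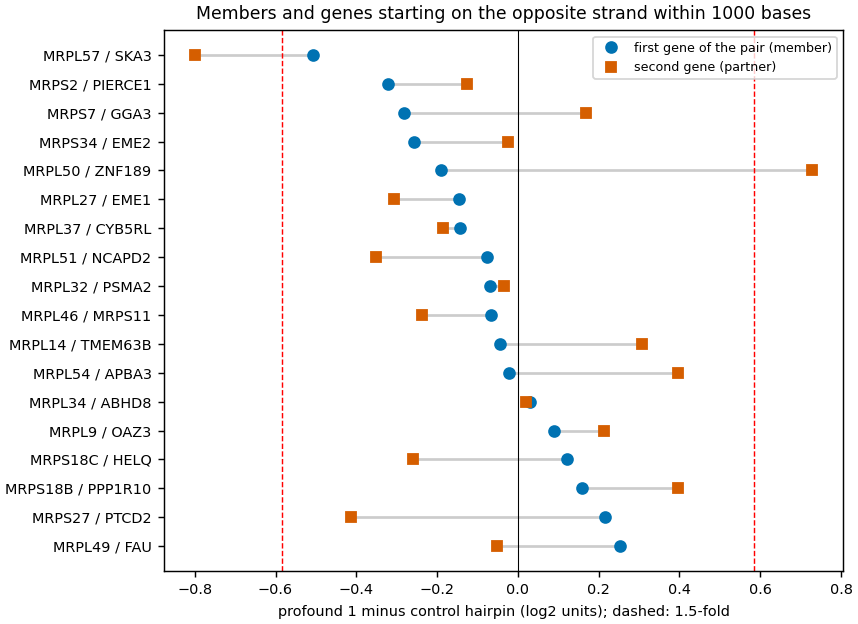
Difference between the profound 1 and control hairpin arrays (log2 units) for 18 pairs of genes that start on opposite strands within 1000 bases, members as circles and partners as squares, with dashed lines at 1.5-fold. SKA3 lies below and ZNF189 above the lines, while every member shown lies between them.

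Proteins of the mitochondrial ribosome that carry no MRP symbol also lay near control. DAP3, a GTP-binding protein of the small subunit, differed by 0.12, 0.23 and 0.14 in moderate, profound 1 and profound 2, and PTCD3, GADD45GIP1 and CHCHD1 lay within 0.16 of control. AURKAIP1 was not analysed here. At 1.5-fold, 1.31%, 6.72% and 2.21% of all tested genes differed from control in moderate, profound 1 and profound 2. Of 23 tested assembly factors, 0 passed 1.5-fold in the moderate array and in profound 1, and 1 did in profound 2. That one was GRSF1, an RNA-binding protein of mitochondrial RNA granules, which read 8.68 in the moderate array, 9.08 in profound 1, 9.20 in profound 2 and 8.52 in the control array. It was high in both profound arrays, by 0.56 and 0.68. RBFA, which matures the small subunit RNA, was the lowest assembly factor in profound 1 (-0.51), and TFB1M, an RNA methyltransferase, was lowest in the moderate array (-0.28). The GTPase gene MTG1 was the next highest in profound 1 (0.33), and MTERF4 was lowest in profound 2 (-0.30).

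Of 15 tested mitochondrial translation factors, 0 passed 1.5-fold in any of the 3 arrays. The shares of all tested genes that did were 1.31%, 6.72% and 2.21% in moderate, profound 1 and profound 2. The release factor gene MTRF1 was lowest in profound 1 (-0.38) and the initiation factor gene MTIF2 highest (0.24). In profound 2 the recycling factor gene MRRF was highest (0.22) and MTRFR, a rescue factor gene, lowest (-0.27). Of 11 genes for transcription and replication of mitochondrial DNA, 0 passed in any of the 3 arrays, with MTERF3 (-0.48) and the helicase gene TWNK (-0.45) low and POLG2, the accessory subunit of the DNA polymerase, high (0.46) in profound 1. In profound 2 SSBP1, a single-stranded DNA binding protein gene, was lowest (-0.32) and TFB2M highest (0.25). All 11 lay below control in the moderate array, by -0.20 to -0.045 with a median of -0.10, where 48.1% of all tested genes did. These differences are small and share the control array.

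Of 9 nuclear regulators of mitochondrial genes, 1 was 1.5-fold lower in profound 1, where 4.03% of all tested genes were. This was PPRC1, a coactivator that works with NRF1, at 7.71 in the moderate array, 7.29 in profound 1, 7.68 in profound 2 and 7.89 in the control array (-0.59). NRF1 itself was at -0.38 and the GABP subunit gene GABPB1 at -0.36 in profound 1, against -0.11 and 0.02 in the moderate array and -0.00026 and 0.08 in profound 2. Above control in profound 1 were the coactivator gene PPARGC1A (0.20, the highest), ESRRA (0.13) and YY1 (0.03). PPARGC1B (-0.14), MYC (-0.13) and the GABP subunit gene GABPA (-0.13) were below control there. ESRRA, a nuclear receptor gene, was highest in profound 2 (0.33), and PPRC1 lowest there (-0.21). The mitochondrially encoded subunits, which this ribosome makes, lay near control for all 8 measured genes, with ND6 in profound 2 (-0.14) furthest off. These are RNA levels, several of them near the top of the signal range where arrays compress differences, and they say nothing of how much was translated.

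**Figure D5:**
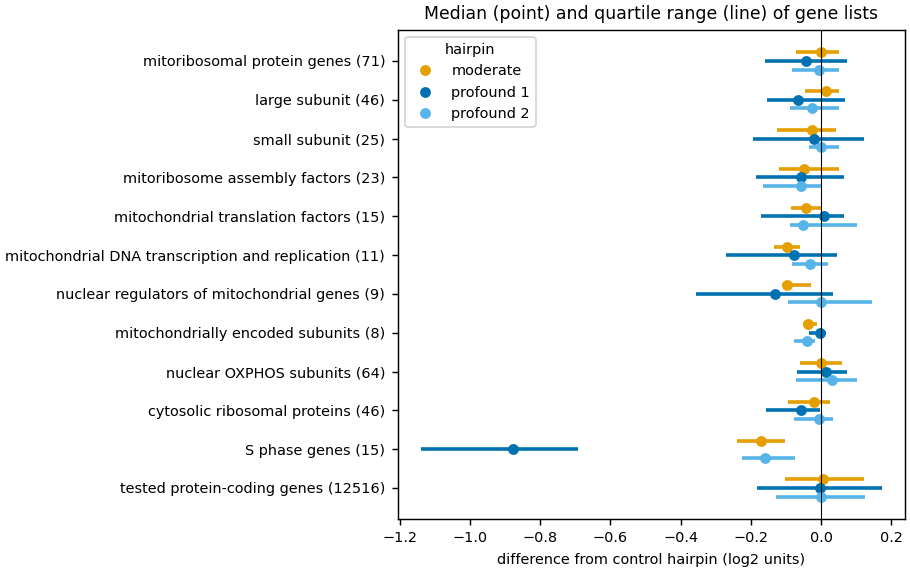
Median (point) and quartile range (line) of the difference from the control hairpin array (log2 units) for each gene list, with its number of tested genes, by hairpin. Mitoribosomal protein genes stay near 0 beside S phase genes, whose median is -0.88 in profound 1.

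The medians of the most similar groups were near 0 as well, and their spread in profound 1 was smaller. The 46 cytosolic ribosomal protein genes had medians of -0.02, -0.06 and -0.007 in the moderate, profound 1 and profound 2 arrays. The 64 nuclear genes for respiratory chain and ATP synthase subunits had -0.0011, 0.02 and 0.03. In either group 0 genes passed 1.5-fold in any of these arrays, against 3 of 71 members in profound 1. Of all tested genes, 1.31%, 6.72% and 2.21% did so in moderate, profound 1 and profound 2. Below control in profound 1 lay 76.1% of the cytosolic and 45.3% of the respiratory chain group, beside 60.6% of members. The spread of single genes in profound 1 was 0.18 among members, 0.11 among cytosolic ribosomal protein genes and 0.12 among respiratory chain genes. By contrast, 13 of 15 S phase genes were 1.5-fold lower in profound 1, with a median of -0.88, against -0.17 in the moderate array and -0.16 in profound 2. Their part in the low values of MRPL18, MRPL58, MRPL57 and MRPS26 was not tested.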

How the data were processed

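Signals of 53617 probe sets on 4 arrays were deposited by the authors as log2 values. The submitters' processing notes name RMA, Expression Console 1.3.1 and Transcriptome Analysis Console 1.0. Because RMA gives all arrays a common distribution, a change shared by most genes cannot be seen, and differences of dim probe sets are understated. Its settings are not given here. Every column was used.

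Gene symbols were those of the platform: 23871 probe sets have 1 symbol, 1842 several and 27904 none listed. They were updated through RefSeq GRCh38.p14 by Entrez ID for 22572 probe sets and by symbol for 730, while 569 stayed unmatched. Tested genes were protein coding and above the table median (3.08) in at least 1 array. Groups followed the genotype field. Differences were first-named minus second-named array, and calls used 1.5-fold, since 1 array per group allows no test. Counting by size was tried on simulated data, with changes of 2-fold or more and the spread of tested genes in the moderate array (0.17). Changes near 1.5-fold, and the wider spread of profound 1 (0.26), were not simulated. Promoter letters came from RefSeq. Alternatives used limma 3.58.1 for cyclic loess, and tables were made with Python 3.11.15 and pandas 2.3.3.

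Genes were named by a rule: the 4 members furthest each way per hairpin against control and between the profound arrays, all past 1.5-fold, the 4 steadiest, the MRPS18 genes, MRPS30 and MRPL12, members whose probe sets differ, and the furthest of each list, not all of which are printed. Of the rule, MRPS36 was not analysed here. Members named by site, by pair or beside a shared probe set, and the promoters to print, were chosen after their values were seen. Members, lists and sites were chosen with earlier results of these data known. The mitochondrially encoded subunits, the promoter letters, the opposite-strand pairs and the genes of like level were added after values were seen.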

Additional observations from a re-analysis of the deposited data

How the results depend on the processing

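Of 120 recalculations, 37 counts of members stayed within 1.5 times and 11 did not. Changing or dropping the filter on dim probe sets could change no result, since all 71 members pass it, and these counts are among the 37. Averaging probe sets could change the values of MRPL33 alone. The other recalculations were of 42 medians and 30 gaps between subunits, which have no replicate error to be judged by and are given as ranges. The median lay between -0.0093 and 0.0099 in the moderate array and between -0.0070 and 0.0056 in profound 2, so that its sign depends on the setting there. In profound 1 the median of the members ranged from -0.053 to -0.027 and the gap between large and small subunit from -0.046 to -0.018. The gap ranged from 0.026 to 0.040 in the moderate array, from -0.024 to -0.017 in profound 2, and from -0.075 to -0.048 for profound 2 against moderate. The gap for profound 1 against profound 2 ranged from -0.032 to 0.0020. With the size rule at 0.32 log2 units, 1 member was called in the moderate array, 8 in profound 1 and 5 in profound 2 against control, 9 in profound 1 and 6 in profound 2 against moderate, and 14 in profound 1 against profound 2. At 2-fold, 0 were called in any comparison, which changed the count in the 4 with a call at 1.5-fold. After cyclic loess, 0 were called for profound 2 against moderate. No paired analysis was possible because each hairpin has 1 array. With 1 array per hairpin, leaving out a replicate was not possible either.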

Other observations

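A further 6 genes of the family have probe sets shared with other genes only, so that their own part in the signal cannot be told apart. MRPL12, the stalk protein that also binds mitochondrial RNA polymerase, shares its probe set with SLC25A10 and differed from control by 0.01 in the moderate array, -0.0077 in profound 1 and 0.13 in profound 2. The brightest probe set of MRPL30, shared with C2orf15, differed by 0.03, -0.0072 and -0.13 in the same order. Its 4 dimmer probe sets lay between -0.36 and 0.23 in profound 1, and between -0.10 and 0.08 in profound 2. That of MRPL53 and CCDC142 differed by 0.04, -0.09 and -0.03, that of MRPS28 and TPD52 by 0.02, 0.04 and 0.10, that of MRPS6 and SLC5A3 by 0.13, -0.0060 and 0.08, and that of MRPS24 and URGCP by 0.18, 0.23 and 0.23.

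A probe set shared by MRPS16 and DNAJC9, a histone chaperone gene, differed by -0.46 in profound 1, whereas the probe set of MRPS16 alone was at -0.03. Of the noncoding neighbours, MRPL20-AS1 differed by -0.35, -0.07 and -0.06 in the moderate, profound 1 and profound 2 arrays. In the same order MRPS30-DT, which read 3.14 in the control array, differed by 0.15, 0.17 and 0.44, and MRPL23-AS1 by 0.50, 0.39 and 0.57. MRPL23-AS1 read 3.13 in the control array, close to the table median, and MRPL23 itself differed by 0.11, 0.22 and 0.04.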
